A study of Mus musculus with 8 samples.

Results

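Bhlhe40, Bhlhe41 and Ciart, 3 genes that encode transcriptional repressors of the circadian clock, were followed across 6 chromatin immunoprecipitation sequencing (ChIP-seq) libraries from mouse beta cells. They are 3 of 21887 protein-coding genes in the RefSeq table for GRCm38.p6, which shares its coordinates with mm10, the build of the peak lists. A peak was counted for a gene when its centre lay inside the gene's RefSeq span or within 20 kb of it. The libraries came from Beta-TC6, a mouse insulinoma line of insulin-secreting cells, in DMEM with serum, harvested at confluence after fewer than 15 passages. Cells were fixed with the protein crosslinker DSG and formaldehyde, and the labels give no drug, synchronisation step or circadian time. The factors BMAL1, CLOCK and PDX1 and the chromatin targets H2A.Z, H3K27ac and H3K4me2 had 1 library each, called against 1 of 2 input libraries made without antibody. There were no replicates, so the values describe these libraries and no test between them was made.

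BMAL1 and CLOCK form a heterodimer that binds E-box sequences and activates clock genes, among them genes whose products shut the heterodimer off again. BHLHE40 and BHLHE41, also called DEC1 and DEC2, are basic helix-loop-helix proteins of the Orange family that bind E-boxes themselves and repress. CIART, also called CHRONO, binds BMAL1 and represses the heterodimer without being a basic helix-loop-helix protein. PDX1 is a homeodomain factor of beta-cell identity. H3K4me2 marks promoters and enhancers, H3K27ac marks active ones, and the histone variant H2A.Z often sits beside the nucleosome-depleted centre of a regulatory site.

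The sequences just outside the annotated start of Ciart and Bhlhe41 are shown because CLOCK peaks lay on both and because the palindromic E-box CACGTG falls near the centre of those peaks. They are RefSeq sequences of GRCm38.p6, written 5′ to 3′ on the minus strand, on which both genes are transcribed, and they stop at the edge of the gene span. Capitals mark CACGTG, and Bhlhe40 had no sequence to show.
Ciart promoter, chr3:95882258-95882478: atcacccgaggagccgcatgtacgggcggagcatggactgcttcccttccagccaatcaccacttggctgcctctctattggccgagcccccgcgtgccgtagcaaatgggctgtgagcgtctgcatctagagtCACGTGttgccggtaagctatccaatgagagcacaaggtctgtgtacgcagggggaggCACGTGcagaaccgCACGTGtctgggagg
Bhlhe41 promoter, chr6:145865421-145865670: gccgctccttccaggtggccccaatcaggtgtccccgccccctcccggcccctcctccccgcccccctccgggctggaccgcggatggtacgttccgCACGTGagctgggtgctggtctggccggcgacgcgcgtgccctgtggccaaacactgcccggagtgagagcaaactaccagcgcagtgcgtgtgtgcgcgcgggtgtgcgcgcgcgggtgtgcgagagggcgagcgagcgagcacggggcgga
The Ciart stretch of 221 bases holds CACGTG 3 times, with 52 bases between the first and the second site and 8 bases between the second and the third. The Bhlhe41 stretch of 250 bases holds it 1 time. Among 21263 RefSeq promoter sequences of 300 bases (250 before and 50 after the start) 7.84% hold CACGTG, and 0.108% (23 sequences) hold it 3 times or more. The E-box-like CACGTT, searched on both strands and sharing its first 5 letters with CACGTG, was not among the letters of either 300-base sequence, against 4.68% of all promoter sequences.

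All 3 genes had a BMAL1 peak, a CLOCK peak and at least 1 place where the 2 overlapped. Under the same rule 14.0% of protein-coding genes had a BMAL1 peak, 8.23% a CLOCK peak and 2.0% an overlapping pair. Long genes gather more peaks, and the spans of Bhlhe40 (6297 bp), Bhlhe41 (7178 bp) and Ciart (3758 bp) are short. Among the 7925 genes with spans under 10 kb the shares were 7.76% for BMAL1, 6.07% for CLOCK and 1.77% for an overlapping pair. The number of pairs differed between the genes, with 3 at Bhlhe40, 2 at Bhlhe41 and 1 at Ciart. At least 2 pairs were found at 0.101% of protein-coding genes (22 genes), and at least 3 pairs at 0.0183% (4 genes). Those 4 genes are Bhlhe40 and a group of neighbours, Nr1d1, Thra and Msl1, which share the same pairs, so only 2 loci had 3 pairs within 20 kb. Among peaks at 8 or more times the input, a limit added for this count after the data were seen, each of the 3 genes kept 1 pair.

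**Figure D1:**
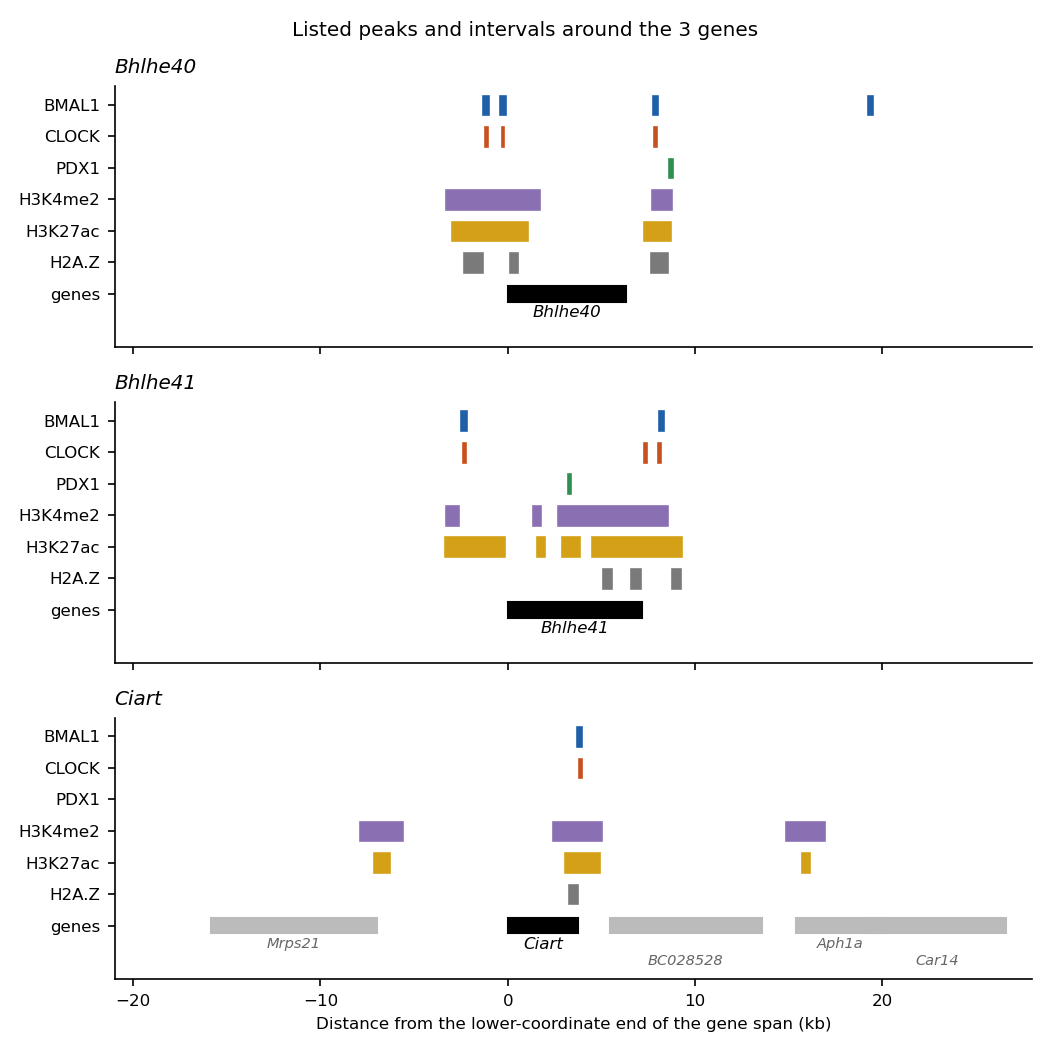
Listed peaks and intervals of the 6 libraries (rows, coloured bars) around Bhlhe40, Bhlhe41 and Ciart; the horizontal axis is the distance in kb from the end of the gene span with the lower coordinate. Black bars are the 3 genes and grey bars are neighbouring protein-coding genes, where Aph1a and Car14 overlap. BMAL1 and CLOCK bars stand above one another 3 times at Bhlhe40, 2 times at Bhlhe41 and 1 time at Ciart, outside the black bars or at their edge.

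Every BMAL1 and CLOCK peak centre at the 3 genes lay outside the gene span. These were 7 BMAL1 and 7 CLOCK peaks, and over the whole lists 50.8% of BMAL1 and 54.6% of CLOCK centres lay inside a protein-coding gene. The comparison is not like for like. The whole lists include long genes, whereas these 3 spans are short and fill a small part of their windows, and most of the peaks are pairs at shared sites. The values that follow are normalized tag counts, the tags at a peak scaled by the authors to 10000000 tags per library. Their 95% intervals are exact Poisson intervals on the tags and cover counting error only, not the spread between libraries. They can be too narrow even for that, since PCR reads are not independent molecules.

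Ciart had the highest BMAL1 and CLOCK peaks of the 3 genes, at its promoter. Its BMAL1 peak (chr3:95882152-95882482) had a normalized tag count of 134.2 (95% interval 115 to 156, 173 tags), rank 5 of 4125 in the list and 14.75 times the input. Its CLOCK peak (chr3:95882242-95882446) had 108.4 (93.7 to 125, 194 tags), rank 6 of 1378 and 15.89 times the input. The 2 centres were 27 bp apart and lay 60 bp (BMAL1) and 87 bp (CLOCK) beyond the upper-coordinate end of the span, the start side of this gene. All 3 CACGTG sites printed above lay within both peaks. The site farthest from the start had its midpoint 2.5 bp from the CLOCK centre and 24.5 bp from the BMAL1 centre, and the other 2 lay 60.5 and 74.5 bp from the CLOCK centre. Over the 133 CLOCK peaks that overlapped a promoter sequence with CACGTG, the median distance from the centre to the nearest such site was 37.5 bp. No further BMAL1 or CLOCK peak was listed within 20 kb of Ciart.

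Bhlhe41 had its highest peaks away from the start, beyond the other end of the gene. There the BMAL1 peak (chr6:145855712-145856042) had a normalized tag count of 64.4 (51.3 to 79.8, 83 tags), rank 18 of 4125, and 10.29 times the input. The CLOCK peak (chr6:145855795-145855999) had 60.9 (50.0 to 73.5, 109 tags), rank 15 of 1378, and 21.42 times the input. The centres were 20 bp apart, 2366 and 2346 bp past the lower-coordinate end, where transcription of this minus-strand gene ends. On the start side CLOCK had 2 peaks 734 bp apart and BMAL1 had 1. The CLOCK peak at the promoter (chr6:145865480-145865684) had 21.8 (15.5 to 29.8, rank 80), and its centre was 162 bp upstream of the span and 11.5 bp from the midpoint of the CACGTG site printed above. No BMAL1 peak was listed there, and the nearest BMAL1 centre was 832 bp from this CLOCK centre. HOMER keeps 660 bp between peaks of the BMAL1 list, and whether this spacing played a part was not tested. The CLOCK peak farther upstream (chr6:145866214-145866418) had 21.2 (15.0 to 29.1, rank 84). It overlapped a BMAL1 peak (chr6:145866249-145866579) of 38.8 (28.8 to 51.1, 50 tags, rank 48), at 13.64 times the input. The CLOCK peak at the promoter was at 7.67 times the input and the one farther upstream at 7.47 times. Neither passed the limit of 8 times the input, which left Bhlhe41 with 1 CLOCK peak, the downstream one. The centres of the upstream pair were 98 bp apart, the widest gap of the 6 pairs at the 3 genes. Of all 258 BMAL1 and CLOCK pairs 22.1% had a gap at least as wide, and the median gap was 41 bp.

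Bhlhe40 had lower peaks, spread over 3 sites of nearly equal height. The BMAL1 peak at chr6:108659277-108659607, centred 1187 bp below the lower-coordinate end of the span, had a normalized tag count of 27.1 (18.9 to 37.8, rank 80). The peak at chr6:108660183-108660513, centred 281 bp below that end, had 25.6 (17.6 to 35.9, rank 91). The peak at chr6:108668318-108668648, centred 1558 bp past the upper-coordinate end, had 20.9 (13.8 to 30.5, rank 118). The 3 intervals overlap, so the order of these sites is not separated by counting error. CLOCK had 20.7 (14.6 to 28.5, rank 89), 22.3 (16.0 to 30.4, rank 76) and 19.0 (13.2 to 26.5, rank 98) at the same sites, again with overlapping intervals. The centres of the paired peaks were 12, 3 and 10 bp apart, closer than the median pair of the series. Fold over input at these BMAL1 peaks was 7.96, 7.50 and 12.28, and at the CLOCK peaks 7.27, 78.62 and 16.71. The value of 78.62 rests on an input count listed at 0.5 tags. Another BMAL1 peak, 13.1 kb past the upper-coordinate end (chr6:108679828-108680158), had 9.31 (4.81 to 16.3, 12 tags), rank 2994 of 4125. It overlapped no peak or interval of the other 5 lists, as did 71.6% of all BMAL1 peaks.

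**Figure D2:**
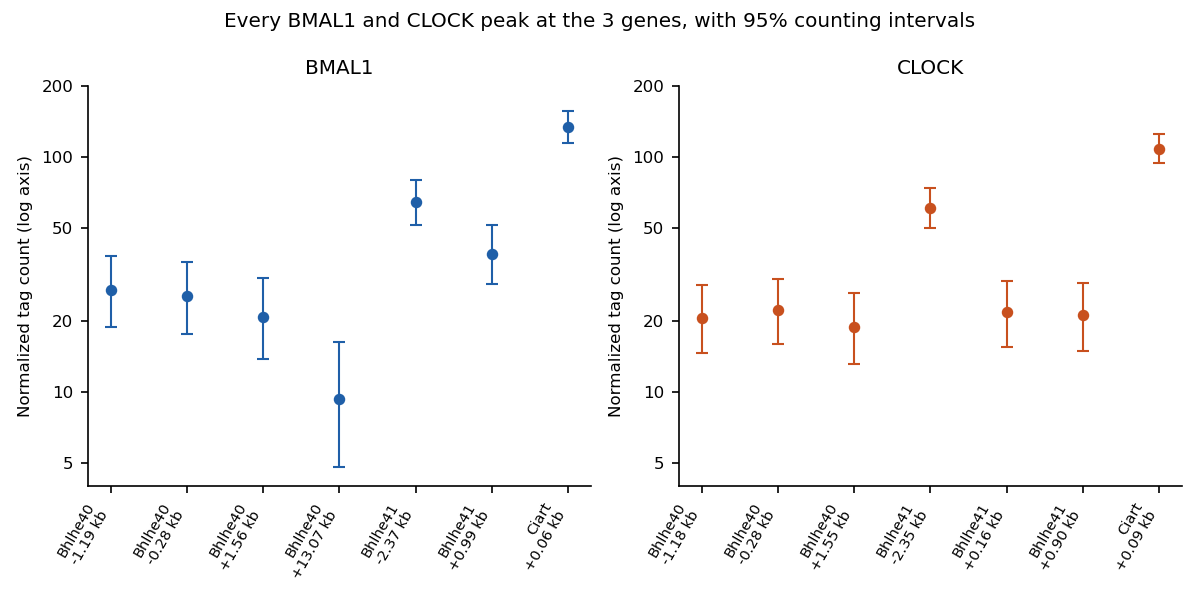
Normalized tag counts (log axis) of every BMAL1 (left) and CLOCK (right) peak within 20 kb of the 3 genes, labelled with the distance of the peak centre below (-) or past (+) the gene span; points are 1 library each and bars are 95% Poisson intervals. Ciart stands highest in both libraries, the peak 2.37 kb below Bhlhe41 comes next, and 5 of the 7 CLOCK peaks lie between 19.0 and 22.3.

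For BMAL1 the order of heights was Ciart, the downstream peak of Bhlhe41, its upstream peak, the 3 paired peaks of Bhlhe40 and the lone peak of Bhlhe40. The interval of Ciart lay apart from all others, and that of the downstream Bhlhe41 peak (lower bound 51.3) just above that of the upstream one (upper bound 51.1). The upstream Bhlhe41 peak overlapped the paired Bhlhe40 peaks in its interval. For CLOCK, Ciart and the downstream Bhlhe41 peak stood apart, and the other 5 peaks had overlapping intervals. The gap between genes was smaller when all peaks of a gene were added. The highest BMAL1 peak of Ciart was 4.95 times that of Bhlhe40, while its sum, from that 1 peak, was 1.62 times the sum of 82.9 at Bhlhe40, and Bhlhe41 had a sum of 103.2. For CLOCK the sums were 108.4 at Ciart, 103.9 at Bhlhe41 and 62.0 at Bhlhe40. The ratio of the BMAL1 to the CLOCK normalized tag count was between 1.06 and 1.31 at 5 of the 6 pairs and 1.83 at the upstream pair of Bhlhe41, the 20th highest of 258 pairs, whose median was 1.21. Antibodies and peak widths differ between the 2 libraries (330 and 204 bp), so the ratio does not compare occupancy.

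The marks followed another order. All 3 genes had H3K4me2, H3K27ac and H2A.Z intervals in the window, as did 74.8%, 63.1% and 60.5% of protein-coding genes, so their presence does not set the genes apart. Among genes with spans under 10 kb these shares were 56.8%, 46.1% and 44.2%. All 6 lists had a peak at Bhlhe40 and Bhlhe41, as at 1.97% of protein-coding genes. The levels of the marks differed between the 3 genes. The highest H3K27ac interval had a normalized tag count of 1141.5 at Bhlhe40 (chr6:108657577-108661700, rank 238 of 29735), 866.0 at Bhlhe41 (chr6:145862703-145867561, rank 428) and 100.5 at Ciart (chr3:95881483-95883408, rank 9963). The value at Bhlhe40 was 11.4 times that at Ciart and the value at Bhlhe41 8.62 times, in the reverse order of the BMAL1 and CLOCK peaks. The order was the same per unit of interval width. Per kb of interval H3K27ac had 277 at Bhlhe40 (rank 89), 178 at Bhlhe41 (rank 969) and 52.2 at Ciart (rank 11950). By the authors' score for the same 3 intervals the ranks were 26811 at Bhlhe40, 2051 at Bhlhe41 and 18721 at Ciart, so Bhlhe40 then stood below Ciart, and with the upper 50% of the list by score Bhlhe40 kept 0 H3K27ac intervals. Over all H3K27ac intervals the median normalized tag count was 49.1.

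H3K4me2 differed less between the genes, and its highest interval overlapped the highest H3K27ac interval at each of them. Its highest interval had a normalized tag count of 341.5 at Bhlhe41 (chr6:145860861-145866789, rank 122 of 41140), 249.6 at Bhlhe40 (chr6:108657277-108662360, rank 454) and 130.1 at Ciart (chr3:95880839-95883543, rank 3701). Per kb of interval H3K4me2 had 57.6 at Bhlhe41 (rank 4038), 49.1 at Bhlhe40 (rank 7979) and 48.1 at Ciart (rank 8538). Bhlhe40 and Ciart were thus close per unit of width, and their difference in tag count went with the wider interval at Bhlhe40. Added over the window, the H3K4me2 values were 380.8 at Bhlhe41, 298.3 at Bhlhe40 and 299.5 at Ciart. The sum at Ciart includes 2 intervals nearer to other genes, 93.3 at Mrps21 and 76.1 at Aph1a. Mrps21, BC028528, Aph1a and Car14 all lie within 20 kb of Ciart, whereas Bhlhe40 and Bhlhe41 have no other protein-coding gene within that distance.

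Each of the 6 pairs of BMAL1 and CLOCK peaks lay in H3K27ac, as did 80.2% of the 258 BMAL1 peaks on CLOCK. The 2 upstream pairs of Bhlhe40 shared the interval of 1141.5, the 12th highest H3K27ac value among those 258 sites. The pair past its upper-coordinate end lay in an interval of 84.9 (chr6:108667844-108669343), 172nd of 258. At Bhlhe41 the upstream pair lay in the interval of 866.0, 23rd of 258. Its downstream pair, with the higher BMAL1 count, lay in an interval of 219.7 (chr6:145854839-145858108), 102nd of 258. Ciart was 5th of 258 by BMAL1 and 164th by H3K27ac. H3K4me2 overlapped 5 of the 6 pairs, against 69.4% of the 258 sites. The exception was the downstream pair of Bhlhe41, whose BMAL1 peak began 79 bp beyond an H3K4me2 interval of 32.2 (chr6:145854913-145855633), and 22.9% of the 258 sites likewise had H3K27ac without H3K4me2.

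H2A.Z intervals lay on some of the BMAL1 and CLOCK peaks and beside others. Bhlhe40 had 3 H2A.Z intervals, Bhlhe41 3 and Ciart 1, with normalized tag counts from 7.02 to 20.5, where the median of the list was 8.64. At Bhlhe40 the interval of 20.5 (chr6:108658238-108659300) reached into the BMAL1 peak farther from the gene but ended 52 bp short of the CLOCK peak there. The BMAL1 peak nearer to the gene fell between that interval and one of 7.02 that began 183 bp away, inside the span. The pair past the upper-coordinate end lay within an interval of 15.7. At Bhlhe41 0 of the 5 BMAL1 and CLOCK peaks overlapped H2A.Z, and the nearest interval, of 10.8, ended 93 bp from the promoter CLOCK peak. At Ciart an interval of 11.9 (chr3:95881744-95882244) ran from the gene body into the edge of both peaks. The BMAL1 peak overlapped H2A.Z in 3 of the 6 pairs, against 27.1% of the 258 sites.

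PDX1 had 1 peak at Bhlhe40, 1 at Bhlhe41 and none at Ciart, and 41.2% of protein-coding genes had at least 1 (23.6% of those with spans under 10 kb). The peak at Bhlhe40 (chr6:108669197-108669431) had a normalized tag count of 7.15 (3.91 to 12.0), rank 26071 of 34883. It lay in the same H3K4me2 and H3K27ac intervals as the pair past the upper-coordinate end, with its centre 831 bp from the BMAL1 centre. The peak at Bhlhe41 (chr6:145861404-145861638) had 9.71 (5.85 to 15.2), rank 15437, close to the list median of 9.20. It lay inside the gene span, in the H3K4me2 interval of 341.5 and in a weak H3K27ac interval of 16.4, 4893 bp from the nearest BMAL1 centre and 4061 bp from the nearest CLOCK centre. No PDX1 peak overlapped a BMAL1 or CLOCK peak at these genes, and 11.2% of the 258 BMAL1 peaks on CLOCK overlapped PDX1. The nearest PDX1 peak to Ciart was 88.1 kb away.

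**Figure D3:**
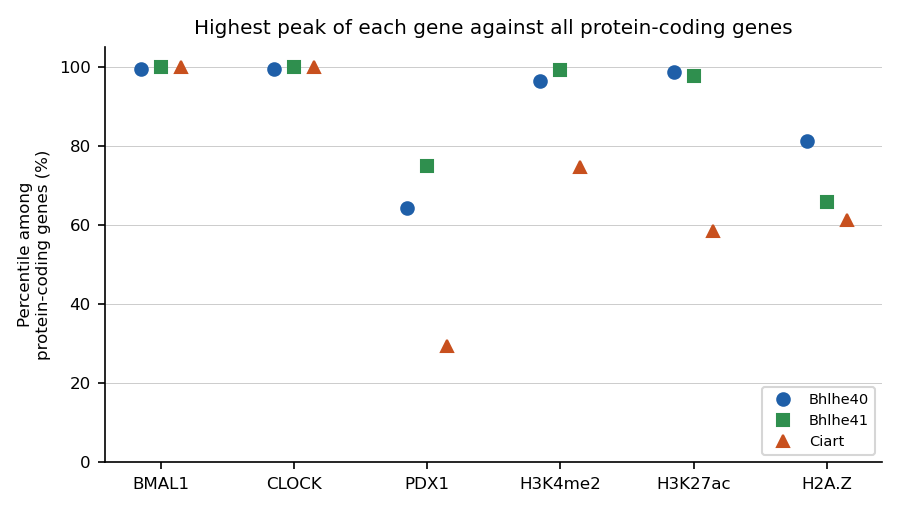
Percentile, among 21887 protein-coding genes, of the highest normalized tag count within 20 kb of Bhlhe40 (circles), Bhlhe41 (squares) and Ciart (triangles) in each library; genes with no peak share a middle rank. All 3 genes lie at 99.4 or above for BMAL1 and CLOCK, while for H3K27ac Ciart is at 58.5 and the other genes are at 98.7 and 97.7.

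The 3 repressors stood at different places in the order of clock genes. Of 24 other clock genes, 14 had a BMAL1 peak in the window, 15 a CLOCK peak and 13 an overlapping pair, beside all 3 of the repressors and the background shares given above. PDX1 was found at 10 of the 24, H3K4me2 at 24, H3K27ac at 20 and H2A.Z at 20. The shares over all protein-coding genes were 41.2%, 74.8%, 63.1% and 60.5%, so the PDX1 count was near its background. The median highest BMAL1 normalized tag count was 64.4 over the 3 repressors, 29.9 over the 24 genes and 0 over all protein-coding genes. Genes without a peak counted as 0 in these medians. Among the 14 other clock genes with a BMAL1 peak the middle values were 114.0 (Per3) and 125.7 (Cry1), above the 64.4 of the repressors. Ordered over these 27 genes, Ciart was 5th by its highest BMAL1 peak, Bhlhe41 10th and Bhlhe40 15th. By the sum of BMAL1 peaks they were 7th, 10th and 11th. By the highest H3K27ac interval Bhlhe40 was 2nd, behind Dbp (1455.7), Bhlhe41 was 4th, next to Per2 (874.9), and Ciart was 18th, next to Cry1 (104.2). Cry1 also had a BMAL1 count of 125.7, near the 134.2 of Ciart.

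**Figure D4:**
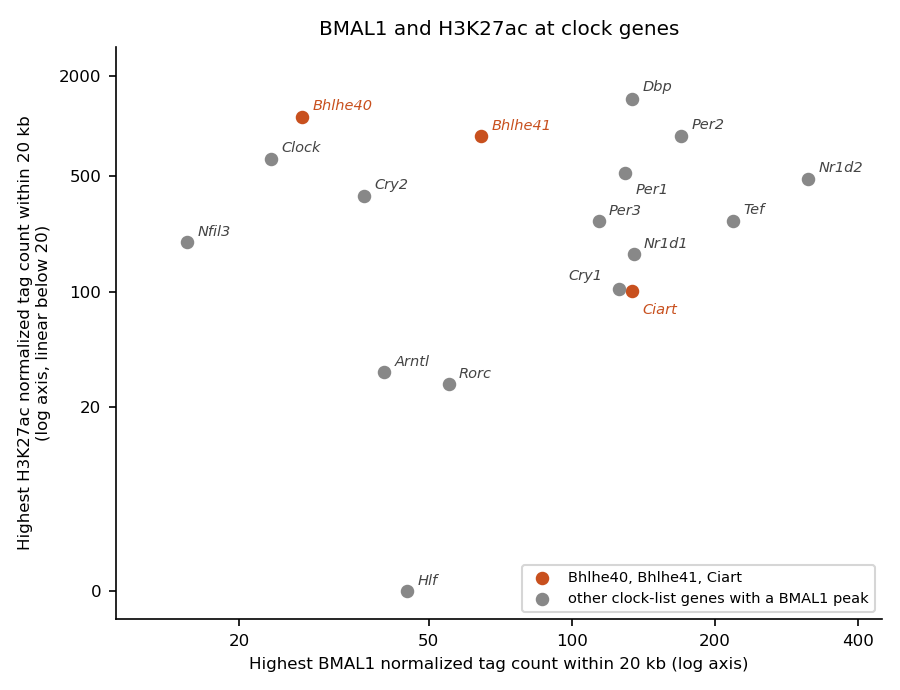
Highest H3K27ac normalized tag count (log axis, linear below 20) against highest BMAL1 normalized tag count (log axis) within 20 kb, for the clock genes with a BMAL1 peak; orange points are Bhlhe40, Bhlhe41 and Ciart and grey points the 14 other genes. Bhlhe40 is at the upper left, and Ciart lies beside Cry1 with a similar BMAL1 count.

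Other genes of the basic helix-loop-helix Orange family, the relatives of Bhlhe40 and Bhlhe41 that act mostly in Notch signalling and development, were counted in the same window. Of 10 such Hes, Hey and Helt genes, 2 had a BMAL1 peak, 1 a CLOCK peak and 1 an overlapping pair, beside 14.0%, 8.23% and 2.0% of all protein-coding genes. H3K4me2 was found at 9 and H3K27ac at 6, beside 74.8% and 63.1% of all protein-coding genes. The pair was at Hes1, with normalized tag counts of 14.0 for BMAL1 and 8.38 for CLOCK, below every paired peak at Bhlhe40. The other BMAL1 peak was at Heyl (9.31). Counts this small give no comparison of the family with other genes.

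Genes with a similar profile were found by the mean absolute difference in percentile over the 6 lists. For Bhlhe40 the 5 nearest of all protein-coding genes included Plcb3 (difference 0.906 percentage points), Kcnk4 (2.66), Dedd2 (3.51) and Bad (3.82), of which Plcb3, Kcnk4 and Bad had the same highest BMAL1 peak. For Bhlhe41 they included Sgsm2 (3.32), Igsf8 and Kcnj9 (3.73 each, with the same values in all 6 lists) and Slc2a7 (3.97). For Ciart 4 of the 5 were its neighbours Mrps21 (0), BC028528, Aph1a and Car14 (0.115 each), whose windows hold the same BMAL1 and CLOCK peaks. The fifth was Gm5737 (1.27). A near percentile did not always mean a near height, since most genes had no BMAL1 or CLOCK peak. Sgsm2 had 10.1 for BMAL1 and 11.7 for CLOCK, against 64.4 and 60.9 at Bhlhe41. Gm5737 had 32.6 and 21.2, against 134.2 and 108.4 at Ciart. Dedd2, with 26.4 and 22.9, was near the 27.1 and 22.3 of Bhlhe40. Bhlhe40 and Bhlhe41 differed from each other by 5.11, with Bhlhe41 18th nearest to Bhlhe40, and Ciart differed from them by 19.7 and 19.0.

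For BMAL1 and CLOCK the 20 kb limit did not cut through a cluster of peaks. The outermost BMAL1 or CLOCK peak inside it was the lone one 13.1 kb from Bhlhe40, and all others lay within 2.37 kb of their gene. The nearest BMAL1 or CLOCK peak beyond the limit was 28.9 kb from Ciart (BMAL1, normalized tag count 10.1), 173 kb from Bhlhe40 (CLOCK, 7.26) and 255 kb from Bhlhe41 (BMAL1, 10.9). Counts of the marks depended on the limit. With a window of 50 kb Bhlhe40 had 6 H3K4me2, 5 H3K27ac and 6 H2A.Z intervals, against 2, 2 and 3 within 20 kb, and Ciart had 6 H3K4me2 intervals, against 3.

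Total tags per library ranged from 12892080 for BMAL1 to 26678241 for H3K4me2. A BMAL1, CLOCK or PDX1 peak needed about 13 tags and 4 times the input to be listed. An absent peak is thus one not listed under these limits, not a site shown to be unbound. The labelled cell type was checked through H3K27ac within 20 kb of marker genes. All 12 beta-cell markers had it, with the highest normalized tag count per gene between 393.9 and 5857.0. It was absent at both delta-cell markers (Sst and Hhex) and at 3 of 4 acinar markers, and 2 of 3 alpha-cell markers had it at up to 138.5. Of the other markers 1 of 2 duct genes, 1 of 2 immune genes and 2 of 2 stellate and endothelial genes had it, the highest being 332.8 near Cd68. H3K4me2 separated the markers less, being found at all 12 beta-cell, all 3 alpha-cell and both delta-cell markers. It was found at 0 of 4 acinar markers and at 1 duct, 2 immune and 2 stellate and endothelial genes.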

How the data were processed

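The submitters' processing notes name mm10, Bowtie 1.1.1 for alignment and HOMER with no version. Each library was peak-called on its own against an input with findPeaks, per the file headers, as fixed-width factor peaks for BMAL1, CLOCK and PDX1 and as variable histone intervals for the marks. For H2A.Z the label names another input than the header. The authors' normalized tag count is a signal, the tags at a peak per 10000000 tags of the library, per the file headers. The deposited findPeaks score, the deposited fold over input (a ratio) and the deposited p-value are the authors' own values for each peak; the p-value was not used.

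Tags per peak were computed back from the normalized tag counts (within 0.133 of a whole number) for exact Poisson intervals. Ranks use the normalized tag count, ties sharing the best rank, and overlap means at least 1 bp. Gene spans and promoter sequences are from RefSeq (GRCm38.p6), and 2 of the 3 genes had a promoter sequence. Named genes are the 3 genes, lists of 24 clock and 10 Orange-family genes, neighbours within 20 kb and the 5 genes with the nearest profile, of which some are not reported here. The members and lists were chosen with earlier results of these data known. Window and overlap code was tested on simulated peaks. Alternative windows, assignments, thresholds and overlaps were tried. The tools were NumPy 2.4.6, SciPy 1.17.1, pandas 2.3.3 and matplotlib 3.10.9 in Python 3.11.15.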

Additional observations from a re-analysis of the deposited data

How the results depend on the processing

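With a window of 0 kb, which asks for a peak centre inside the gene span, 0 of the 3 genes had a BMAL1 peak, 0 a CLOCK peak and 0 an overlapping pair, while 1 had H3K27ac and 1 had PDX1. Windows of 5 and 50 kb, any overlap with the window, and peaks given only to the nearest gene left all of these gene counts within 1.5 times. With the upper 50% of each list by score 1 gene had a PDX1 peak, and with intervals at 8 or more times the input 0 had H3K4me2. The overlapping pair was found at all 3 genes under these filters, with an overlap of 50% of the narrower peak and with centres within 500 bp. Of 126 counts of peaks per gene and list under the alternatives, 90 stayed within 1.5 times and 36 did not. Ranks of the BMAL1, CLOCK and PDX1 peaks by score, and those of all lists among autosomal peaks only stayed within their counting intervals. Ranks of the marks by score did not, because the score of a histone-style interval is not its tag sum. For H3K27ac they were 26811 (Bhlhe40), 2051 (Bhlhe41) and 18721 (Ciart), which turned the order of Bhlhe40 and Ciart. For H3K4me2 they were 36345, 14669 and 38399, respectively. For H2A.Z they were 6534, 1664 and 2578, against 2713, 5874 and 7103 by normalized tag count, so Bhlhe40 went from first to last. No paired analysis was possible because each target had 1 library. Depth and the limits for listing a peak restrict what an absent peak shows, in particular BMAL1 at the Bhlhe41 promoter and PDX1 at Ciart. Which of these applied there was not tested.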

Other observations

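CACGTG was frequent in promoters with BMAL1 or CLOCK peaks. Of the 81 promoter sequences of 300 bases that overlapped both a BMAL1 and a CLOCK peak, 64.2% held it, as did 48.5% of the 299 that overlapped a CLOCK peak and 38.1% of the 223 that overlapped a BMAL1 peak, against 7.84% of all 21263. Of the 23 promoter sequences with at least 3 such sites, 7 overlapped a CLOCK peak and 2 a BMAL1 peak. Of these, 1 overlapped both, and it was that of Ciart. Among the other clock genes, 20 had a promoter sequence and 3 of them held CACGTG, which were Per1, Cry1 and Tef. These shares are descriptions of sequences that can overlap one another, since a gene can have several annotated starts.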
